A study of Saccharomyces cerevisiae with 18 samples.

Results

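The genes described here encode the mitochondrial respiratory chain and ATP synthase of the budding yeast Saccharomyces cerevisiae. They are 38 genes taken by systematic name from a table of 6212 genes. They comprise 3 NADH dehydrogenases, 4 subunits of succinate dehydrogenase, 9 of the cytochrome bc1 complex, cytochrome c (CYC1), 9 of cytochrome oxidase and 12 of the ATP synthase, all encoded in the nucleus. Of these, 37 had an entry (ATP18 had none), 36 had a value on some array (the entry of CYC1 was empty) and 19 had a value on all 18 arrays. COX7, measured on 2 arrays, and COX9, measured on 3, had too few values for any test, which left 34 genes tested at some time point.

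The study compared a single strain, BY4741 (labelled wild type; a laboratory strain that lacks HIS3, LEU2, MET15 and URA3, here on both sides of every ratio), in potassium-free medium with the same strain in that medium plus 50 mM KCl. Cultures at 28 °C and an absorbance of 0.6 were washed and sampled at 5 times from 10 to 120 min later; residual potassium in the potassium-free medium was about 15 µM. The design text speaks of a sudden shortage of potassium, whereas the growth text gives potassium-free medium also for the culture before the wash, so how long the cells had been without potassium cannot be settled from the labels. Both RNAs were hybridised to the same 2-colour array, and every value is taken as a log2 ratio, potassium-free over KCl, in which 0 is no difference and 1 would be a doubling in potassium-free cells. The 10 min point had 1 experiment, and each later point had 2, all with a dye swap, which gave 2 and 4 arrays.

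Yeast has no proton-pumping NADH dehydrogenase. Single-subunit enzymes pass electrons from NADH to coenzyme Q instead, NDI1 on the matrix side of the inner membrane and NDE1 and NDE2 on its outer side, while succinate dehydrogenase feeds in electrons from the citrate cycle. The bc1 complex passes them on to cytochrome c and cytochrome oxidase passes them to oxygen, both pumping protons, and the ATP synthase uses the proton gradient to make ATP. In yeast many of these genes, though not all, are held low on glucose and are activated by the HAP complex, whose regulated subunit is HAP4.

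The ratios carried no absolute level, so the strain could not be checked against its deleted marker genes, and each ratio is relative to the other genes of its array. The arrays held values for 3913 to 5372 genes, with medians between -0.237 and 0.179. The spread over genes was wider at 60 min (SD 1.06 to 1.30) than at 20 min (0.384 to 0.555). Neither the log base nor the direction of the ratio is stated in the labels, and both are likely rather than settled; folds hold if the base is 2. Whether RNA of close paralogs (COX5A and COX5B, NDE1 and NDE2, SDH3 and SHH3, SDH4 and SHH4, SDH1 and YJL045W) hybridised to each other's probes was not tested.

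A minority of the genes passed the test at 40, 60 and 120 min, and those that did were all higher in potassium-free cells. The calls lay mostly among the NADH dehydrogenases NDI1 and NDE2, the succinate dehydrogenase anchor SDH4 and the bc1 complex. In limma, with Benjamini-Hochberg adjustment over all genes tested and a threshold of 0.05, 7 of 31 tested members were higher at 40 min, against 5.23% of all genes. At 60 min 10 of 29 members were higher, against 21.7% of all genes, and at 120 min 11 of 31, against 20.4%. No member was called lower at 40, 60 or 120 min, whereas 3.7%, 25.1% and 22.0% of all genes were. Without regard to direction, the share of all genes called was 8.93% at 40 min, 46.8% at 60 min and 42.3% at 120 min, while 22.6%, 34.5% and 35.5% of the tested members were. The members' calls thus all lay on the higher side, and their share in either direction at 60 and 120 min was below that of all genes. Before adjustment 18 of 31, 13 of 29 and 13 of 31 members had a p under 0.05 at these times, against 28.3%, 54.9% and 52.8% of all genes, and ATP14 at 60 min was the single such member below 0.

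The first time points gave no call. At 10 min no member passed, against 0.0% of all genes; before adjustment 1 of 34 members, NDI1, had a p under 0.05, against 2.8% of all genes. At 20 min no member passed, against 0.482% of all genes in either direction; before adjustment NDI1, QCR6 and ATP3 had a p under 0.05, which are 3 of 30 members, against 6.24% of all genes.

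Over the 5 times the median of the tested members was 0.11, 0.20, 0.52, 0.47 and 0.27, and it was highest at 40 min. The median of all genes tested lay between -0.09 and 0.01 at these times. Members above 0 on every array that measured them numbered 15 of 34, 11 of 30, 21 of 31, 19 of 29 and 12 of 31 in the same order. This held for 27.2%, 14.2%, 24.1%, 30.8% and 31.2% of all genes, so the members' share of 38.7% at 120 min lay nearer to that of all genes than their share of 67.7% at 40 min.

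**Figure D1:**
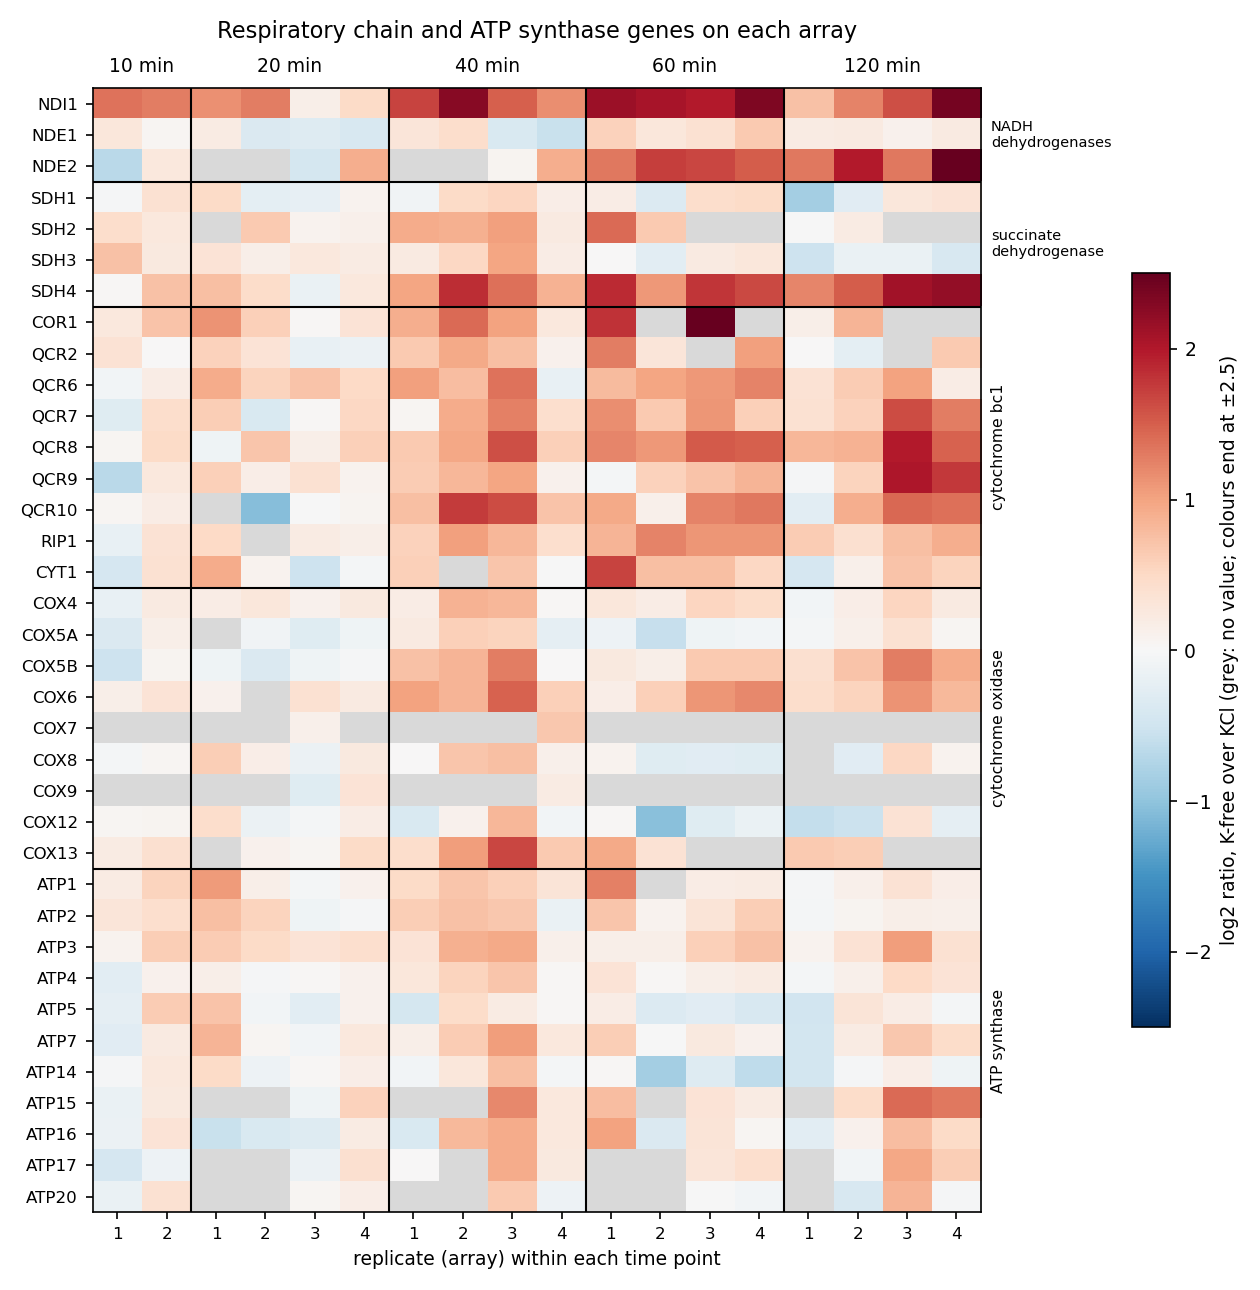
Log2 ratios, potassium-free over KCl, of the 36 measured members (vertical axis, grouped by complex) on each of 18 arrays (horizontal axis, replicates within each time point). Red is higher in potassium-free cells, blue lower, grey no value, and colours end at 2.5 on either side. NDI1, SDH4 and the bc1 complex are red on most arrays from 40 min, while most ATP synthase genes stay pale at 60 and 120 min.

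The arrays of a time point did not give the same level. At 40 min the median of the measured members was 0.45, 0.83, 0.93 and 0.20 on replicates 1 to 4. The higher ones, replicates 2 and 3, carried potassium-free RNA in the dye Cy3, and replicates 1 and 4 in Cy5. At every other time the Cy5 array of each assumed pair had the higher median. A part of the dye in these differences was not tested. Replicate 3 also had the widest spread over all genes at 40 min (SD 0.905, against 0.612 on replicate 4). At 120 min the median of the members was -0.02, 0.22, 0.76 and 0.45, and the first pair of arrays, taken as one experiment, lay below the second. No member was called at 40 min when the first or the second experiment was left out, against 0.51% and 0.872% of all genes. At 60 min 7 of 29 members were called without the one or the other, as were 1427 and 990 of 4127 genes in all. At 120 min 11 of 31 were called without the first and 2 without the second, NDE2 and SDH4, against 39.5% and 12.2% of all genes, so the calls of members and of all genes alike were fewer without the second. In all, 14 members were called at some time point, 8 of them at both 60 and 120 min, 2 at 60 and not 120 min and 3 at 120 and not 60 min.

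Among the NADH dehydrogenases, NDI1 and NDE2 were called higher in potassium-free cells and NDE1 did not pass the test. NDI1 (YML120C), the internal enzyme, gave 1.37 and 1.27 on the arrays of 10 min and 1.14, 1.28, 0.14 and 0.48 on those of 20 min. It gave 1.69, 2.27, 1.49 and 1.17 on the arrays of 40 min, 2.14, 2.06, 1.98 and 2.33 on those of 60 min and 0.74, 1.24, 1.61 and 2.40 on those of 120 min. It was thus above 0 on all 18 arrays, and among the times with 4 arrays its range was narrowest at 60 min and widest at 120 min. Its mean was 1.66 ± 0.31 at 40 min, 2.13 ± 0.31 at 60 min and 1.50 ± 0.31 at 120 min (SE, n = 2 experiments), with limma adjusted p-values of 0.0252, 0.0018 and 0.00931. Each SE and interval, here and below, comes from the limma fit with 1 spread for all time points. It does not show how well the 2 experiments of a time agreed. Those of NDI1 averaged 2.0975 and 2.153 at 60 min but 0.9855 and 2.005 at 120 min. The mean at 60 min is a 4.36-fold difference. At 10 min its mean of 1.32 ± 0.44 rests on 1 experiment and had an adjusted p of 1.0 in limma.

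NDE2 (YDL085W), an external enzyme, was measured on 2 arrays each at 20 and 40 min and was not tested there. It gave 1.32, 1.74, 1.67 and 1.51 at 60 min and 1.31, 1.99, 1.33 and 3.38 at 120 min, and replicate 4 of 120 min stood highest. Its mean was 1.56 ± 0.23 at 60 min and 2.00 ± 0.23 at 120 min (SE, n = 2 experiments; limma adjusted p = 0.00375 and 0.00241). NDE1 (YMR145C), the other external enzyme, gave 0.30, 0.45, -0.39 and -0.55 at 40 min, where its 2 experiments lay on opposite sides of 0. It gave 0.58, 0.28, 0.38 and 0.65 at 60 min and 0.21, 0.22, 0.11 and 0.23 at 120 min, all above 0 and all under 0.7. Its mean was 0.47 ± 0.22 at 60 min (95% interval -0.04 to 0.98; limma adjusted p = 0.111). NDI1 was above NDE1 on all arrays of every time point, by 1.56 to 1.77 at 60 min. NDE2 was above NDE1 on 4 of 4 arrays at 60 min, by 0.74 to 1.45, and on 4 of 4 at 120 min, by 1.11 to 3.15.

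Of the 4 subunits of succinate dehydrogenase, SDH4 alone was called, at 40, 60 and 120 min. SDH4 (YDR178W) is a membrane anchor that holds the heme and coenzyme Q site together with SDH3. It gave 0.98, 1.85, 1.38 and 0.87 at 40 min, 1.86, 1.08, 1.79 and 1.65 at 60 min, and 1.22, 1.52, 2.11 and 2.19 at 120 min. All 12 of these values were above 0.8, while at 20 min they were 0.75, 0.45, -0.16 and 0.26. The mean was 1.27, 1.60 and 1.76, each ± 0.24, at 40, 60 and 120 min (SE, n = 2 experiments; limma adjusted p = 0.0252, 0.00188 and 0.00192), the last a 3.39-fold difference.

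SDH3 (YKL141W), its partner in the membrane, gave 0.02, -0.27, 0.22 and 0.28 at 60 min and -0.52, -0.16, -0.16 and -0.41 at 120 min. The values at 120 min were below 0 on all 4 arrays, with a mean of -0.31 ± 0.17 that did not pass the test (limma adjusted p = 0.164). SDH4 was above SDH3 on all 12 arrays of 40, 60 and 120 min, by 1.36 to 1.84 at 60 min and by 1.68 to 2.60 at 120 min. SDH1 (YKL148C), the flavoprotein that oxidises succinate, averaged 0.27, 0.19 and -0.12 at 40, 60 and 120 min, with intervals that all include 0. SDH2 (YLL041C), the iron-sulfur subunit, averaged 0.77 ± 0.22 at 40 min (limma adjusted p = 0.0881). It had 2 arrays each at 60 min, at 1.42 and 0.65, and at 120 min, at -0.01 and 0.21, and was not tested there. The paralog SHH4, named after its values were seen, averaged 1.30, 1.61 and 1.39 at 40, 60 and 120 min and was called each time (limma adjusted p = 0.0164, 0.00126 and 0.00249), so higher SHH4 RNA and higher SDH4 RNA cannot be told apart if their probes bind both. It was the 1 paralog called of 3 tested at 40 and at 60 min. At 120 min 2 of the 3 were higher and 1 was lower, against 20.4% and 22.0% of all genes, with means from -0.72 to 1.39.

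**Figure D2:**
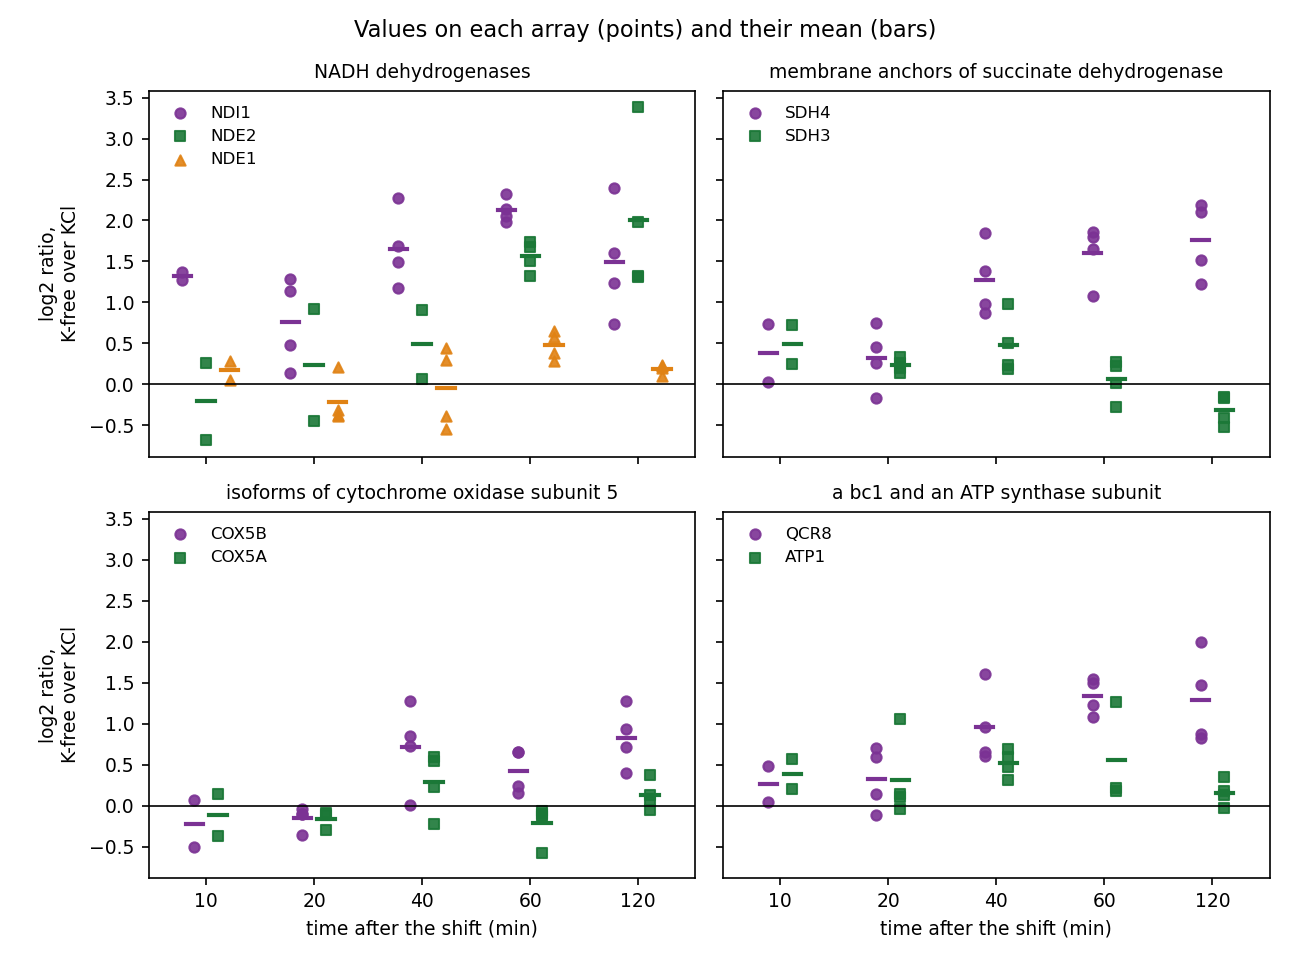
Log2 ratios, potassium-free over KCl (vertical axis), by time (horizontal axis, in min) for a trio and pairs of genes. QCR8 and ATP1 are subunits of different complexes, bc1 and the ATP synthase, and the other genes shown together have related roles. Points are arrays and bars are the means of the points. NDI1, NDE2, SDH4, COX5B and QCR8 lie above NDE1, SDH3, COX5A and ATP1 at 120 min; at 60 min a single array of ATP1, at 1.27, reaches the range of QCR8.

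The bc1 complex held the largest number of called members. Called higher were 3 of 9 tested subunits at 40 min, 6 of 8 at 60 min and 5 of 8 at the last time, against 5.23%, 21.7% and 20.4% of all genes, and the median subunit was 0.71, 0.92 and 0.77 at those times. All of the tested subunits had means above 0 at these 3 time points. With arrays scaled to the same spread the counts were 3, 3 and 1 and the medians 0.65, 0.59 and 0.51, and after quantile normalization 5, 3 and 1 subunits were called, with medians of 0.79, 0.66 and 0.52. Without the second experiment no bc1 call at 120 min held, and at 60 min those of QCR6, QCR8 and RIP1 held without either one.

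Among its small subunits, QCR8 (YJL166W) lies beside cytochrome b, which mitochondrial DNA encodes. QCR8 gave 0.65, 0.96, 1.61 and 0.60 at 40 min, 1.23, 1.08, 1.54 and 1.49 at 60 min and 0.82, 0.87, 1.99 and 1.48 at 120 min, and every value was above 0.5. Its mean was 0.95, 1.33 and 1.29, each ± 0.24, at 40, 60 and 120 min (SE, n = 2 experiments; limma adjusted p = 0.0488, 0.00341 and 0.00523). The call at 40 min was lost without replicate 2 (0.88, adjusted p = 0.0692) or replicate 3 (0.70, adjusted p = 0.105).

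QCR9 (YGR183C), another small subunit, gave -0.04, 0.57, 0.71 and 0.85 at 60 min and -0.02, 0.56, 2.01 and 1.77 at 120 min. Its experiments at 120 min averaged 0.27 and 1.89, and the call there (mean 1.08 ± 0.35, limma adjusted p = 0.0403) was lost without replicate 2 (0.94, adjusted p = 0.0865). QCR7 (YDR529C), which also lies beside cytochrome b, averaged 0.88 ± 0.24 at 60 min and 0.97 ± 0.24 at 120 min (limma adjusted p = 0.0196 and 0.0172). QCR6 (YFR033C), the acidic subunit near cytochrome c1, averaged 0.74, 1.03 and 0.55, each ± 0.17, at 40, 60 and 120 min (limma adjusted p = 0.0408, 0.00261 and 0.0346). Without replicate 3 its mean was 0.35 at 40 min and 0.35 at 120 min (adjusted p = 0.388 and 0.147), and without replicate 2 it was 0.48 at 120 min (adjusted p = 0.063), so these calls were lost. QCR10 (YHR001W-A), a small peripheral subunit, had the highest bc1 mean at 40 min, 1.22 ± 0.34, yet was not called at 40, 60 or 120 min (limma adjusted p = 0.0684, 0.0618 and 0.0754). With 1 array left out it was called at 40 min without replicate 1 or 4 (adjusted p = 0.049 and 0.043), at 60 min without replicate 2 (0.0249) and at 120 min without replicate 1 (0.0186).

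Of the 2 catalytic subunits encoded in the nucleus, RIP1 was called at 120 min and CYT1 was not; their difference was not tested. RIP1 (YEL024W), the Rieske iron-sulfur protein, averaged 0.71, 1.07 and 0.67, each ± 0.17, at 40, 60 and 120 min and was called at all 3 (limma adjusted p = 0.0461, 0.00239 and 0.0186). Its arrays at 60 min gave 0.86, 1.24, 1.10 and 1.10, a narrow range, while the call at 40 min was lost without replicate 2 (0.60, adjusted p = 0.0773) or replicate 3 (0.61, adjusted p = 0.0818). CYT1 (YOR065W), cytochrome c1, gave 1.69, 0.76, 0.76 and 0.51 at 60 min and -0.43, 0.13, 0.72 and 0.55 at 120 min, and replicate 1 was the highest array at 60 min and the lowest at 120 min. It averaged 0.93 ± 0.28 at 60 min (limma adjusted p = 0.0274; 0.70 and 0.0545 without replicate 1) and 0.24 ± 0.28 at 120 min (adjusted p = 0.495). The core protein QCR2 (YPR191W) averaged 0.91 ± 0.25 at 60 min over 3 arrays (limma adjusted p = 0.0183; 0.67 and 0.0764 without replicate 1) and 0.27 ± 0.25 at 120 min. COR1 (YBL045C), the other core protein, averaged 0.90 ± 0.25 at 40 min (limma adjusted p = 0.087, but 0.0471 without replicate 4); at 60 min its 2 measured arrays gave 1.81 and 2.61, and it was not tested.

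Cytochrome c, the mobile carrier between the bc1 complex and cytochrome oxidase, has 2 genes in yeast, and no array gave a value for the main one, CYC1. The minor form CYC7, which is not a member and is known as the form of cells short of oxygen, averaged 0.91 ± 0.40 at 40 min, 2.00 ± 0.40 at 60 min and 1.00 ± 0.40 at 120 min. It was called at 60 min (limma adjusted p = 0.00523) and not at 40 or 120 min (adjusted p = 0.185 and 0.0753).

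In cytochrome oxidase, COX6 was called at 3 time points and COX13 and COX5B at 1 each. Called higher were 2 of 7 tested subunits at 40 min, 1 of 6 at 60 min and 2 of 6 at 120 min, which are 28.6%, 16.7% and 33.3%, against 5.23%, 21.7% and 20.4% of all genes. The median subunit was 0.48, 0.08 and 0.17. COX6 (YHR051W), a subunit on the matrix side, was called at each of these times: it gave 1.01, 0.85, 1.47 and 0.59 at 40 min, 0.16, 0.59, 1.10 and 1.20 at 60 min and 0.44, 0.56, 1.13 and 0.82 at 120 min. Every value was above 0, and at 60 and 120 min replicates 1 and 2 lay below replicates 3 and 4. Its mean was 0.98, 0.76 and 0.74, each ± 0.22 (SE, n = 2 experiments; limma adjusted p = 0.042, 0.0265 and 0.0341); the call was lost without replicate 3 at 40 min (0.76, adjusted p = 0.0901) and without replicate 2 at 60 min (0.65, adjusted p = 0.073).

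COX5A (YNL052W) and COX5B (YIL111W) are alternative forms of 1 subunit, the first used in air and the second when oxygen is scarce. COX5B gave 0.73, 0.84, 1.27 and 0.01 at 40 min, 0.24, 0.15, 0.66 and 0.66 at 60 min and 0.40, 0.71, 1.27 and 0.93 at 120 min. COX5A gave 0.23, 0.59, 0.55 and -0.22 at 40 min, -0.12, -0.58, -0.10 and -0.07 at 60 min and -0.05, 0.13, 0.37 and 0.06 at 120 min. COX5B was above COX5A on all 12 of these arrays, with differences between 0.23 and 0.90, and on 2 of 3 arrays at 20 min and 0 of 2 at 10 min. COX5B was called at 120 min (0.83 ± 0.20, limma adjusted p = 0.0157) and not at 40 or 60 min (0.71 and 0.43, adjusted p = 0.0677 and 0.117), though without replicate 4 it was called at 40 min (1.03, adjusted p = 0.0339). COX5A was not called at any time, with means of 0.29, -0.22 and 0.13 and 95% intervals from -0.60 to 0.67 over 40, 60 and 120 min.

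COX12 (YLR038C), which faces the intermembrane space, had the lowest mean of the complex: it gave 0.03, -1.04, -0.31 and -0.16 at 60 min and -0.59, -0.54, 0.37 and -0.23 at 120 min. Its means of -0.37 ± 0.22 and -0.25 ± 0.22 did not pass the test (limma adjusted p = 0.192 and 0.38). COX13 (YGL191W), a peripheral subunit, averaged 0.96 ± 0.20 at 40 min (limma adjusted p = 0.0453, but 0.0967 without replicate 2 and 0.0726 without replicate 3) and had 2 arrays each at 60 min, at 0.94 and 0.36, and at 120 min, at 0.66 and 0.61. COX4 (YGL187C), the zinc-binding subunit, averaged 0.48, 0.36 and 0.21, and COX8 (YLR395C), a small membrane subunit, 0.40, -0.20 and 0.01 at 40, 60 and 120 min, none of them called. COX7 gave 0.12 and 0.67 on its arrays of 20 and 40 min; COX9 gave -0.31 and 0.34 at 20 min and 0.20 at 40 min.

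**Figure D3:**
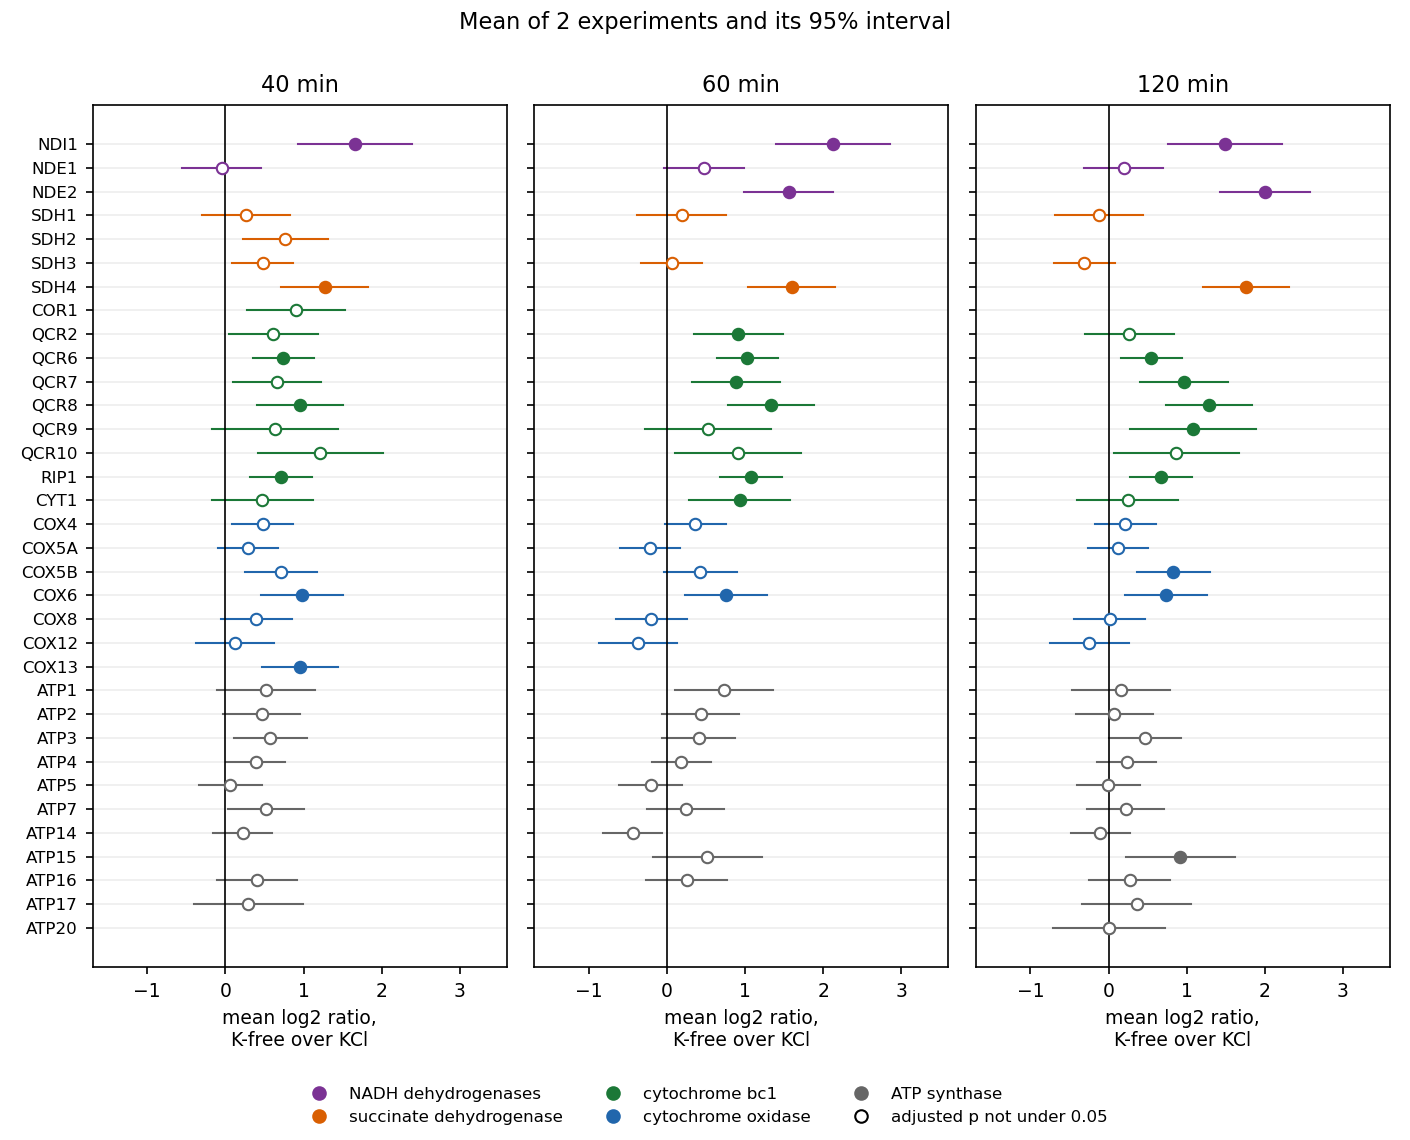
Mean log2 ratio, potassium-free over KCl (horizontal axis), of each tested member (vertical axis) at 40, 60 and 120 min, with its 95% interval; filled points have a limma adjusted p under 0.05. The filled points number 7, 10 and 11, all above 0, and the ATP synthase has 1 of them, ATP15 at 120 min.

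The ATP synthase showed the fewest calls. No subunit was called at 40 min (0 of 9) or at 60 min (0 of 9), and 1 of 11 was called at 120 min, against 8.93%, 46.8% and 42.3% of all genes in either direction and 5.23%, 21.7% and 20.4% higher. Before adjustment 3, 2 and 2 subunits had a p under 0.05, against 28.3%, 54.9% and 52.8% of all genes. The median subunit was 0.40, 0.25 and 0.22 at 40, 60 and 120 min. At 40 min all 9 tested subunits had means above 0, between 0.06 and 0.57.

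ATP15 (YPL271W), the epsilon subunit of the central stalk, was the 1 called: it gave 0.47, 1.41 and 1.33 on the 3 measured arrays of 120 min, and averaged 0.92 ± 0.28 (SE, n = 2 experiments; limma adjusted p = 0.0463). The call was lost without replicate 3 (0.90, adjusted p = 0.0528), and at 60 min its arrays gave 0.76, 0.34 and 0.20. ATP1 (YBL099W), the alpha subunit of the catalytic head, gave 1.27, 0.18 and 0.21 at 60 min and -0.04, 0.13, 0.35 and 0.17 at 120 min. Its mean of 0.73 ± 0.27 at 60 min (limma adjusted p = 0.0578) thus rests on replicate 1, the only measured array of its experiment. ATP14 (YLR295C), subunit h of the peripheral stalk, gave 0.03, -0.84, -0.31 and -0.63 at 60 min and -0.45, -0.03, 0.17 and -0.10 at 120 min, the lowest means of the complex. At 60 min it averaged -0.44 ± 0.16, which did not pass the test (limma adjusted p = 0.0578); it was called lower without replicate 1 (-0.66, adjusted p = 0.0174) or replicate 3 (-0.52, adjusted p = 0.0374), and no other member was called lower at any time point under the settings tried.

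The other head and central stalk subunits were ATP2, the catalytic beta subunit, ATP3, the gamma shaft, and ATP16, the delta subunit. ATP2 averaged 0.46, 0.43 and 0.07, ATP3 0.57, 0.40 and 0.47, and ATP16 0.40, 0.25 and 0.27 at 40, 60 and 120 min. Of the stator and membrane subunits, ATP4 (subunit b) averaged 0.39, 0.18 and 0.23, ATP5 (the oligomycin sensitivity subunit) 0.06, -0.21 and -0.01, and ATP7 (subunit d) 0.52, 0.24 and 0.22. None of these was called. ATP17 (subunit f) averaged 0.29 at 40 min and 0.36 at 120 min, and ATP20 (subunit g, which takes part in dimers of the enzyme) 0.00 at 120 min, its 3 arrays there running from -0.41 to 0.86. The head and central stalk subunits had medians of 0.49, 0.43 and 0.27 at 40, 60 and 120 min, over 4, 5 and 5 tested genes. The stator and membrane subunits had medians of 0.29, -0.01 and 0.11, over 5, 4 and 6 tested genes. At 60 min ATP17 and ATP20 were not tested, so that median of -0.01 rests on ATP4, ATP5, ATP7 and ATP14.

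Set against each other on the same array, the bc1 complex lay above the ATP synthase. At 60 min the median of the bc1 subunits was 1.16, 0.71, 1.10 and 1.07 on replicates 1 to 4, and that of the ATP synthase subunits 0.61, -0.01, 0.24 and 0.20. The bc1 median was higher on 4 of 4 arrays at each of 40, 60 and 120 min, and on 2 of 4 at 20 min. The difference ran from 0.14 to 0.51, from 0.55 to 0.87 and from 0.32 to 0.77 at 40, 60 and 120 min. It was above that of cytochrome oxidase on 4 of 4 arrays at 40 and 60 min, at 60 min by 0.56 to 1.01, and on 3 of 4 at 120 min. Cytochrome oxidase was above the ATP synthase on 4 of 4 arrays at 40 min, by at most 0.19, on 1 of 4 at 60 min and on 2 of 4 at 120 min. The members behind these medians differed between arrays. Medians over members measured on all 18 arrays covered 3 cytochrome oxidase and 7 ATP synthase genes. On these cytochrome oxidase was the higher except on replicate 4 at 40 min, replicate 1 at 60 min and replicate 4 at 120 min. The order of cytochrome oxidase and the ATP synthase thus depended on the members taken. These differences have no p, since arrays of a dye swap share their RNA and 2 experiments allow no permutation test under 0.05.

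**Figure D4:**
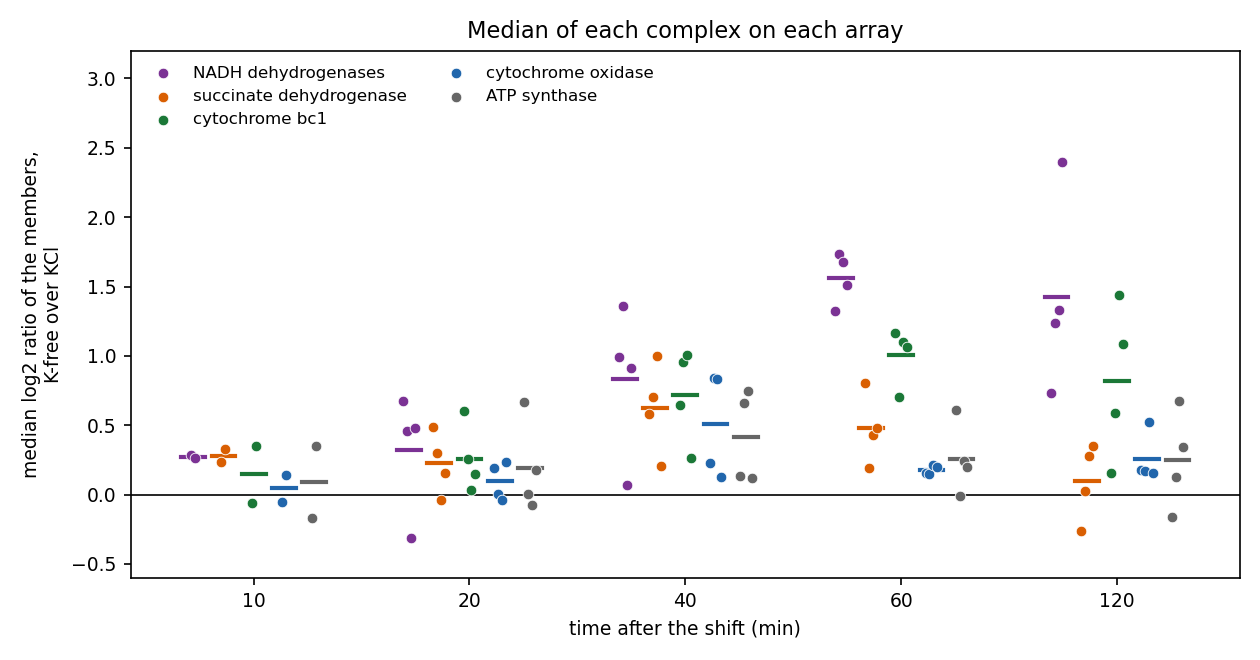
Median log2 ratio, potassium-free over KCl (vertical axis), of the measured members of each complex on each array (points) by time (horizontal axis, in min), with the mean over arrays as a bar. At 60 min the bc1 medians, 0.71 to 1.16, lie above those of cytochrome oxidase, 0.15 to 0.21, and the NADH dehydrogenases lie highest.

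The time points were compared with each other in limma. No member was called between 20 and 40 min (0 of 30), 40 and 60 min (0 of 27) or 60 and 120 min (0 of 29), and the share of all genes called was 0.0% in each; before adjustment 5, 1 and 0 members had a p under 0.05, against 9.02%, 21.1% and 20.1% of all genes. The 5 were QCR10, COX5B, SDH4, COX13 and COX6, all later above earlier between 20 and 40 min, QCR10 by 1.73 ± 0.49 and SDH4 by 0.95 ± 0.34 (SE; limma adjusted p = 0.447 and 0.495). The 1 between 40 and 60 min was ATP14, which differed by -0.66 ± 0.23 (limma adjusted p = 0.169). A moderated F test over 20 to 120 min called 0 of 27 members, against 14.1% of all genes tested; 3 members had a p under 0.05 before adjustment, against 36.4% of all genes, and SDH4 had the lowest limma adjusted p, 0.0663. Since no gene of the table passed between successive times, these contrasts say nothing on whether the members stayed the same. With the other pairing of arrays into experiments, 1 member, QCR2, was lower at 120 than at 60 min (-0.86, limma adjusted p = 0.0442) and 2 differed between 20 and 40 min, against 16.6% and 4.53% of all genes.

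Genes that supply or serve the chain were described from lists, and their counts stand against 21.7% of all genes higher and 25.1% lower at 60 min, and 20.4% higher and 22.0% lower at 120 min. Of the citrate cycle, which supplies NADH and succinate, 5 of 7 tested genes were higher and 1 lower at 60 min, and 2 of 8 higher and 1 lower at 120 min; these are 71.4% and 25.0% higher, the second near the 20.4% of all genes. The median was 1.10 at 60 min and 0.48 at 120 min. CIT1, citrate synthase, averaged 1.99 ± 0.20 and MDH1, the mitochondrial malate dehydrogenase, 1.62 ± 0.24 at 60 min (limma adjusted p = 0.000622 and 0.00197). The gene called lower at both times was FUM1, fumarase, named after its values were seen, at -0.54 ± 0.19 and -0.83 ± 0.19 (limma adjusted p = 0.0497 and 0.0133).

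Of the genes that make coenzyme Q, the carrier that takes up electrons from the dehydrogenases, 4 of 8 were higher at 60 min and 1 of 8 at 120 min, or 50.0% and 12.5%, against 21.7% and 20.4% of all genes. COQ3 averaged 1.57 ± 0.18 and COQ6 1.08 ± 0.20 at 60 min (limma adjusted p = 0.000853 and 0.00373). Of other dehydrogenases that feed the chain, 2 of 3 were higher at 60 min and 3 of 4 at 120 min, against the same shares. CYB2, which oxidises lactate and gives its electrons to cytochrome c, averaged 3.10 ± 0.23, and DLD1, another lactate dehydrogenase, 1.17 ± 0.17 at 60 min (limma adjusted p = 0.000475 and 0.00159).

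Of the assembly factors, 3 of 17 were higher and 2 lower at 60 min, against 21.7% and 25.1% of all genes. The share higher, 17.6%, was near that of all genes. At 120 min 6 of 19 were higher and 4 lower, against 20.4% and 22.0%. SDH5, which attaches the flavin to SDH1, averaged 1.78 ± 0.17 at 60 min, and COX14, an assembly factor of cytochrome oxidase, -1.14 ± 0.18 (limma adjusted p = 0.000567 and 0.00237). The vacuolar ATPase, a rotary enzyme related to the ATP synthase that uses ATP to pump protons, had 0 of 11 tested genes higher and 4 lower at 60 min, and 6 lower at 120 min, against 25.1% and 22.0% of all genes lower. Its subunits VMA11 and VMA3 averaged -0.94 ± 0.17 and -0.84 ± 0.18 at 60 min (limma adjusted p = 0.00403 and 0.00782).

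Among transcriptional regulators, 2 of 4 tested genes were higher at 60 min and 4 of 6 at 120 min, against 21.7% and 20.4% of all genes, and none was lower. HAP4 had no value on any array up to 40 min; it gave 2.59 and 3.26 on 2 arrays of 60 min and 2.64 and 2.88 on 2 of 120 min, all of 1 experiment, and was not tested. HAP1, a heme-responsive activator that is disrupted by a transposon in the S288C background from which BY4741 descends, averaged 0.73 ± 0.21 at 60 min and 0.90 ± 0.21 at 120 min (limma adjusted p = 0.0222 and 0.0131). ROX1, a repressor of genes used when oxygen is scarce, averaged 0.70 ± 0.22 at 60 min (limma adjusted p = 0.0328). INH1, an inhibitor of the ATP synthase, was measured on 2 arrays of 60 min, at 1.33 and 1.35, and was not tested there; STF1, a related inhibitor, had no entry.

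**Figure D5:**
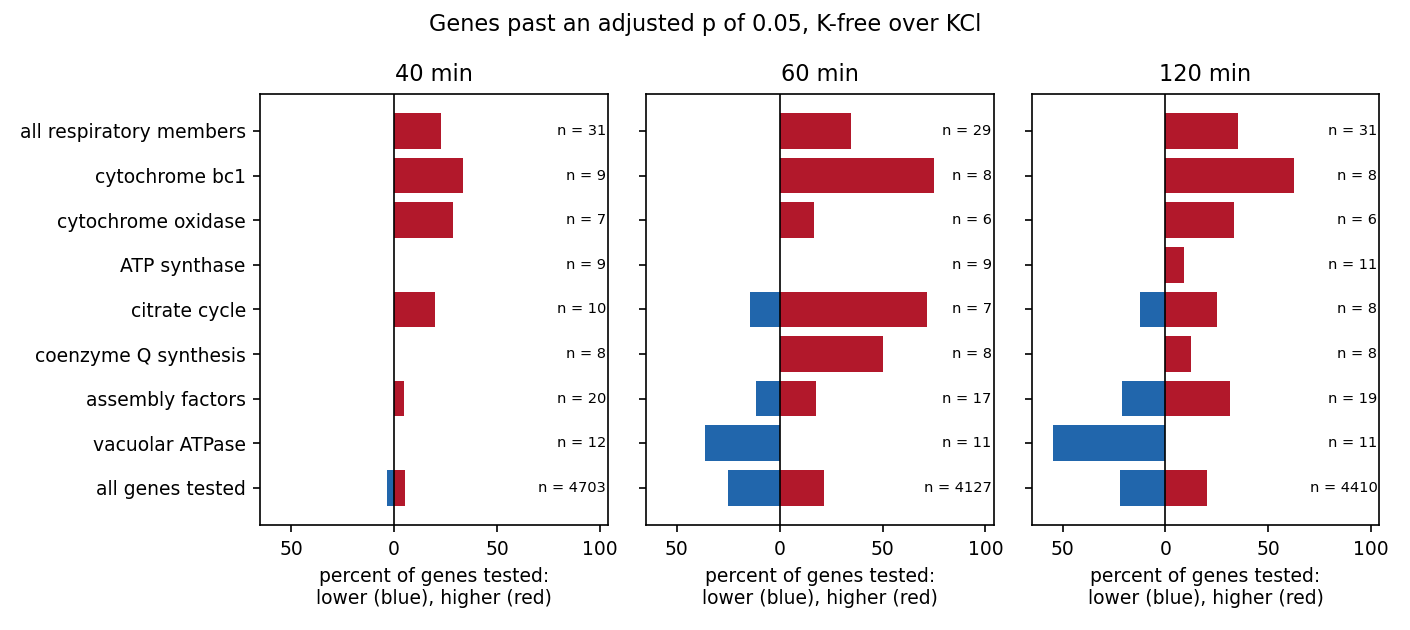
Share of tested genes (horizontal axis, percent) called higher (red, to the right) or lower (blue, to the left) in potassium-free over KCl at a limma adjusted p of 0.05, by group (vertical axis) at 40, 60 and 120 min, with the number tested. At 60 min 6 of 8 bc1 genes and 5 of 7 citrate cycle genes were higher, none of 9 ATP synthase genes was called, and the vacuolar ATPase had calls to the lower side alone.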

How the data were processed

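The authors deposited 1 log ratio per gene and array, taken here as log2 since the labels give no base, made from spots of at least 120 µm and 100 intensity units, per the labels. Per the labels, 8 µg of total RNA was labelled through oligo(dT) priming. The sources used here give no background correction or normalization. On 1 array of 10 min the labels give both channels the same dye, and its title was followed.

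The unaltered ratios were fitted with limma 3.58.1 (R 4.3.3) on the means of dye-swap pairs (replicates 1 and 2, replicates 3 and 4; the labels do not say which arrays belong together), with a mean per time point and 1 spread for all (prior degrees of freedom 3.49). All tests are two-sided, with Benjamini-Hochberg adjustment over all genes tested, and a gene needed 3 of 4 arrays, or 2 at 10 min. The single experiment of 10 min takes its spread from the later times. The p-values rest on this pooled spread and not on that of their own time point, and the number of arrays limits the precision. The 2 experiments lay further apart at later times. Over genes, their gap had an SD of 0.42 (20 min), 0.51 (40 min), 0.67 (60 min) and 0.75 (120 min). The pooled spread does not follow this rise, so it may be too wide for the early times and too narrow for 120 min. The fit was tested on simulated data.

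Members and lists were chosen with earlier results of these data known. Values on every array were printed for NDI1, NDE1, NDE2, CYC1, COX5A, COX5B and the highest and lowest mean of each complex at 60 and 120 min, with other values chosen after they were seen; other lists were named by HAP4, HAP1, CYC7, INH1, STF1 and up to 2 members with the largest mean at 60 min. Symbols came from RefSeq R64, which matched 5662 genes; no positions are given. Alternatives changed the pairing, the replicate unit, a dye term, scaling, filters, prior, threshold and the arrays used. Replicate numbers were checked as a pairing across times: deviations correlated with r between -0.18 and 0.43, so they were not taken to pair arrays.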

Additional observations from a re-analysis of the deposited data

Results flagged for a closer look

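Of 105 groups of 4 arrays of a member at a time point, 6 held an array set apart from the other 3 by Dixon's test at its 95% critical value, and chance gives about 1 in 20 such groups. At 20 min replicate 1 was high for ATP1, at 1.06, against 0.14 at most on the others, and for NDE1, at 0.21, against -0.31 at most. At 40 min replicate 4 was low for SDH2, at 0.23, against at least 0.89 on the others, and for ATP2, at -0.17, against at least 0.62. At 60 min COX5A was low on replicate 2, at -0.58, against at least -0.12 on the others, and COX8 was high on replicate 1, at 0.10, against -0.28 at most. No called value was among these 6.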

How the results depend on the processing

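No mean of a member changed sign where it was called, and ATP14 at 60 min was the single member called lower at a time point, under 6 alternatives (each array as a replicate, a dye term, values on every array, a threshold of 0.1 and without replicate 1 or 3). The counts depend on what counts as a replicate, and the shares of all genes called, given in brackets in the same order, moved with them; they were 8.93%, 46.8% and 42.3% at 40, 60 and 120 min and 14.1% in the F test as reported. With each array as a replicate, 19, 18 and 1 members were called at 40 min, at 60 min and between 20 and 40 min, and 7 in the F test (28.5%, 59.6%, 4.11% and 50.4%). The other pairing of arrays gave 19 at 40 min and 18 at 60 min, with 2 between 20 and 40 min, 1 (lower) between 60 and 120 min and 8 in the F test (26.5%, 59.6%, 4.53%, 16.6% and 47.3%). Estimated over genes, paired arrays correlated at 0.26 in the pairing used and at -0.23 in the other one. The higher counts of the other pairing are thus not an equally likely alternative, though the labels do not settle the pairs. A random block for the experiment gave 11 at 40 min and 3 in the F test (19.7% and 36.4%), and a dye term 18 and 7 (27.2% and 49.5%). With arrays scaled to the same spread, 1, 4, 6 and 5 were called at 10, 20, 60 and 120 min (1.18%, 6.79%, 29.1% and 24.7%), and after quantile normalization 1, 3, 11, 6 and 5 at 10 to 120 min (2.39%, 8.62%, 17.6%, 27.7% and 24.9%). With each time point fitted alone, 13 were called at 40 min and 2 at 120 min (21.2% and 14.6%). Requiring 1 array of each experiment gave 4 at 40 min (6.69%), and values on every array 1 in the F test (25.2%). At a threshold of 0.01, 0, 6 and 4 were called at 40, 60 and 120 min (0.978%, 29.9% and 18.5%), and at 0.1, 11 at 40 min and 1 in the F test (17.2% and 30.5%). Over the 19 members with values on all 18 arrays, a choice made after seeing the data, 4, 5 and 7 were called at 40, 60 and 120 min. With the replicate block, 5, 12 and 11 were called at 40, 60 and 120 min (8.19%, 47.0% and 42.8%) and 0 elsewhere.

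Leaving out 1 array or experiment left between 0 and 10 members called at 40 min, between 7 and 11 at 60 min, between 2 and 12 at 120 min and between 0 and 3 in the F test, 3 without the first experiment of 120 min; at 40 min 4 and 2 were called without replicates 2 and 3 (8.19% and 5.99%), and at 120 min 2 without the second experiment (12.2%). Of 28 called means, 11 lost the call without some array and 20 without some experiment. The cause of these changes was not tested.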
